A study of Mus musculus with 10 samples.

Results

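The subject is a set of 10 genes for the synthesis, breakdown and transport of polyamines, read out in the cortex of Atad3 nKO and control mice; Atad3 encodes an ATPase of the mitochondrial membranes. The genes were Odc1, Amd1, Srm, Sms, Oaz1, Azin1, Sat1, Smox, Paox and Slc18b1. They were found by gene name in every library among 24972 listed genes, and all 10 passed the filter on low counts, which left 14378 genes for testing. RNA was sequenced from the cortex of 5 Atad3 nKO mice and 5 control littermates, all males of the C57BL/6 strain aged 2.5 months and perfused before dissection. Each library was 1 animal, total RNA was used, and the stranded libraries were made with a kit that removes ribosomal RNA. The labels do not spell out nKO, the Cre driver or the deleted exons, and they give no treatment or allele beyond the genotype. The 5 nKO libraries are called nKO 1 to nKO 5 and the 5 control libraries control 1 to control 5.

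Polyamines are small positively charged molecules that bind nucleic acids and ion channels and are needed for translation. Ornithine decarboxylase makes putrescine, which spermidine synthase and spermine synthase lengthen with groups taken from decarboxylated S-adenosylmethionine. Antizyme sends ornithine decarboxylase to the proteasome, and antizyme inhibitor binds antizyme in its place. An acetyltransferase and a pair of oxidases run the pathway backwards. In brain, polyamines block or modulate glutamate receptors and potassium channels, and a vesicular carrier loads them into secretory vesicles of neurons and astrocytes.

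The gene list was chosen with results of this nKO and control contrast known. Slc18b1 came in through its measured difference: it is the 1 member among the 22 genes of the authors' deposited table of scores, and its libraries do not overlap between the groups. Its difference is therefore given as a description, and no test of it is read as support. The other 9 members are listed genes of the same pathway.

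Group means are set side by side here, with Slc18b1 already chosen for its difference. Slc18b1, the vesicular polyamine carrier, averaged 9.80 ± 1.04 TPM (transcripts scaled for effective length and to a fixed total per library) in nKO cortex and 6.21 ± 0.959 TPM in control cortex (SD, n = 5 each). The other 9 members had nKO and control libraries that overlapped. Of these, Amd1 ran from 0 to 66.1 TPM between libraries and has a near-identical copy, Amd2. The sum of Amd1 and Amd2 averaged 185.6 ± 9.85 TPM in nKO cortex and 159.4 ± 16.8 TPM in control cortex, with overlapping libraries.

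**Figure D1:**
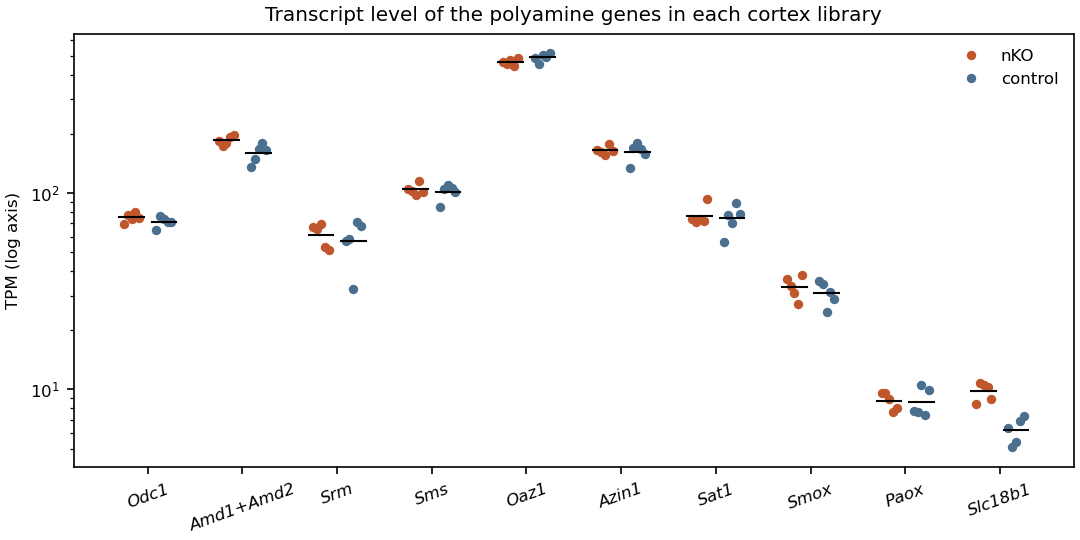
Level of each polyamine gene in TPM on a log axis, with the 5 nKO libraries left of the 5 control libraries and a line at each mean. Amd1 is drawn as the sum with Amd2. Slc18b1 is the gene whose nKO points, from 8.45 to 10.8 TPM, all lie above the control points, which end at 7.30 TPM.

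The libraries held 14812639 to 19097795 estimated counts in nKO cortex and 16768382 to 24161361 in control cortex. Atad3a, the targeted gene, had 13.9 to 18.8 TPM in nKO libraries and 28.2 to 33.5 TPM in control libraries. Its log2 fold change was -1.04 (SE 0.12, adjusted p = 0.00634 by the quasi-likelihood test of edgeR), and the labels fit it in all 10 libraries. It was 1 of 2 genes called at an adjusted p under 5% among 14378, which is 0.0139% of them. The neuronal marker Slc17a7 had 565.0 to 690.0 TPM in nKO libraries and 481.6 to 618.6 TPM in control libraries. The summed level of 3 liver markers was 0.913 to 3.52 TPM in nKO libraries and 0.998 to 3.85 TPM in control libraries, and none of the 3 was expressed enough to be tested. Since these are bulk libraries, fewer cells of a type and less RNA per cell cannot be told apart.

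Taken as a list, the members showed 0 calls by edgeR at an adjusted p under 5%. At an unadjusted p under 0.05 edgeR counted 1 of 10 members, Slc18b1, beside 5.65% of all tested genes (483 higher and 329 lower in nKO). Slc18b1 was also the 1 member without overlap between the groups in CPM (counts scaled to library size, here by TMM), beside 1.38% of all tested genes. DESeq2 called 5 genes in all, and 1 of them was Slc18b1. Because the list was chosen on this contrast, nothing is read from these counts. By direction, 5 members were higher and 5 were lower in nKO, and their median log2 fold change was -0.02, beside -0.01 over all tested genes. The median size of the change regardless of sign was 0.04 for the members and 0.10 for all tested genes, both on the log2 scale. The second value covers genes of every level and was not matched to the members, so the members are not read as steadier.

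**Figure D2:**
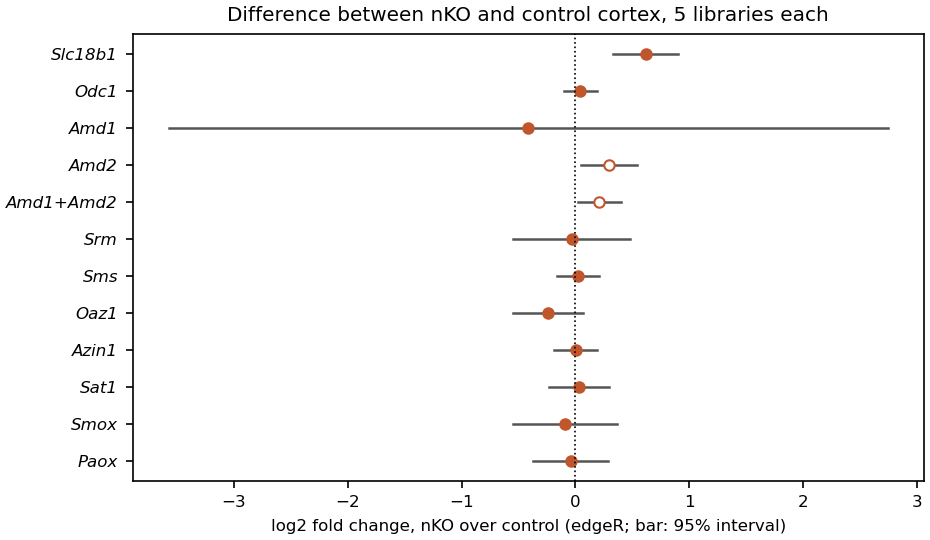
Log2 fold change of nKO over control cortex from edgeR, with bars for the 95% interval; filled points are the 10 members, open points Amd2 and the sum of Amd1 and Amd2. Slc18b1 sits at 0.62, and the interval of Amd1 runs from -3.57 to 2.75.

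Synthesis begins with Odc1, which encodes ornithine decarboxylase and lies at chr12:17544808-17551502 (GRCm38, RefSeq). Odc1 had 69.5, 76.8, 74.0, 80.2 and 74.8 TPM in nKO 1 to 5, against 64.8, 76.0, 73.6, 70.9 and 70.9 TPM in control 1 to 5. The groups overlapped over most of their range, with nKO 4 highest and control 1 lowest. Its log2 fold change was 0.04 (SE 0.07), and the 95% interval of the fold ran from 0.931 to 1.14. Odc1 was also among the steadiest genes between animals. Its standard deviation within groups was 0.0727 on the log2 CPM scale, lower than in all but 5.6% of 500 genes of similar level.

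Amd1 encodes adenosylmethionine decarboxylase, the enzyme that makes the donor for both synthases. The mouse genome holds a copy of it, Amd2, 4.58 Mb away on the same chromosome. The GENCODE transcript of Amd1 (GRCm38, minus strand) has 8 exons and 3204 bases, and that of Amd2 has 1 exon and 3218 bases. An alignment paired 3201 bases, of which 11 differed, and 1 of these lay in the coding sequence. Of the 3174 distinct stretches of 31 bases in Amd1, 91.3% were also in Amd2. The coding difference is G1124C, counted from 1 at the 5′ end of the Amd1 transcript with the Amd1 base first. It is shown because it is the only coding base by which a read can be given to Amd1 or Amd2. The windows below run 5′ to 3′ on the transcript strand, at chr10:40290156-40290216 for Amd1 and chr10:35710734-35710794 for Amd2, and the capital marks the differing base.
Amd1: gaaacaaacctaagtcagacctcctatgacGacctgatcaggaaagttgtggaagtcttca
Amd2: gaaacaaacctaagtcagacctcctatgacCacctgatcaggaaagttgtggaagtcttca

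The deposited values of Amd1 followed no group. Amd1 was listed at 0, 0, 52.7, 24.7 and 11.3 TPM in nKO 1 to 5, against 10.9, 0, 30.7, 66.1 and 8.92 TPM in control 1 to 5. Libraries at 0 occurred in both groups, and so did libraries above 30 TPM. Amd2 was lowest in nKO 3 and control 4, where Amd1 was highest. It had 183.3, 173.4, 127.9, 167.7 and 187.0 TPM in nKO 1 to 5, against 125.0, 149.5, 136.1, 113.1 and 156.6 TPM in control 1 to 5. Amd1 took up to 29.2% of the summed estimated counts in nKO (nKO 3) and up to 36.9% in control (control 4). Its log2 fold change of -0.41 had an SE of 1.40, so the difference in Amd1 alone was not measurable, and its within-group spread was above that of 100% of the 500 genes of similar level. Whether these zeros come from dividing reads between the copies was not tested.

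Summing the copies removes that division. The sum, chosen after seeing the data, had 183.3, 173.4, 180.6, 192.4 and 198.3 TPM in nKO 1 to 5, against 135.9, 149.5, 166.8, 179.2 and 165.5 TPM in control 1 to 5. The 4 highest libraries were nKO animals and the 4 lowest were controls, while control 4 lay between nKO 3 and nKO 2. On the count scale the log2 fold change of the sum was 0.21 (SE 0.09, 95% interval from 0.02 to 0.40), and its adjusted p in edgeR was 0.82. That log2 fold change was 0.12 without control 1 and nKO 4, which lie at opposite ends of the first principal component described below.

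**Figure D3:**
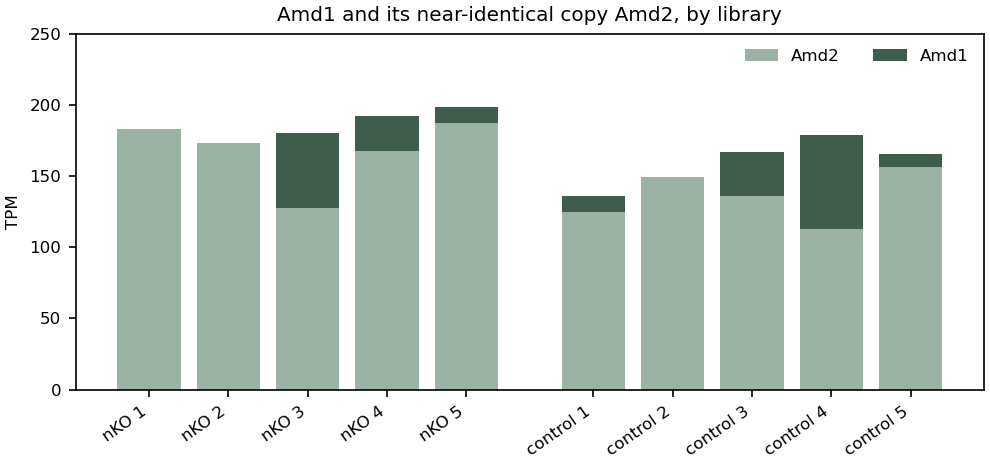
Stacked TPM of Amd2 and Amd1 in each library, nKO libraries left of control libraries. The split between the copies changes from library to library, from no Amd1 in nKO 1, nKO 2 and control 2 to 66.1 TPM in control 4, while the sums run from 173.4 to 198.3 TPM in nKO and from 135.9 to 179.2 TPM in control.

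The synthases came next. Srm, spermidine synthase at chr4:148591513-148594619, had 66.8, 65.9, 69.4, 53.2 and 51.5 TPM in nKO 1 to 5, against 57.0, 58.3, 32.4, 71.0 and 67.5 TPM in control 1 to 5. Control 3 was far below every other library, and nKO 4 and nKO 5 were the lowest of their group. The log2 fold change of Srm was -0.03 (SE 0.23), or 0.17 without control 1 and nKO 4. Its within-group spread was above that of 95.8% of genes of similar level. Srm lies 7.15 Mb from Atad3a. Sms, spermine synthase at chrX:157443851-157492287, had 105.3, 102.7, 97.7, 115.3 and 101.5 TPM in nKO 1 to 5, against 85.0, 104.7, 109.3, 106.3 and 101.5 TPM in control 1 to 5. The groups of Sms overlapped, with control 1 alone low. The fold of Sms had a 95% interval from 0.894 to 1.15. Sms exceeded Srm in all 10 libraries, by 1.74 ± 0.318 times in nKO and 1.93 ± 0.815 times in control on the TPM scale.

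Of the regulators, Oaz1 (chr10:80826656-80829290) encodes antizyme, whose full-length protein is made only when ribosomes shift frame in response to polyamines. Oaz1 was the most abundant member in both groups, at 463.1, 451.7, 475.0, 445.4 and 488.8 TPM in nKO 1 to 5, against 486.8, 455.4, 506.7, 492.3 and 513.2 TPM in control 1 to 5. The ranges overlapped, though 4 control libraries stood above nKO 3. Oaz1 exceeded Odc1 by 6.21 ± 0.474 times in nKO and by 6.91 ± 0.575 times in control (TPM ratio per library, SD, n = 5 each), and these ratios overlapped too.

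On the count scale Oaz1 looked different. It had 113.8, 112.9, 118.0, 83.1 and 111.3 CPM in nKO 1 to 5, against 177.4, 102.7, 112.0, 118.6 and 125.5 CPM in control 1 to 5. In CPM, nKO 4 was far below and control 1 far above the rest, whereas in TPM nKO 4 was close to nKO 2 and control 1 lay inside its group. The effective length of Oaz1, by which Salmon divides counts to reach TPM, was 499 bases in nKO 4 and 876 bases in control 1, and 583 to 683 bases in the other 8 libraries. The log2 fold change was -0.24 (SE 0.14) on counts, -0.14 with effective lengths as offsets, -0.09 without control 1 and -0.02 without control 1 and nKO 4. By edgeR the adjusted p of Oaz1 was 0.83 on counts and 0.51 with the offsets. With the offsets its unadjusted p was under 0.05, unlike on counts. The part of effective length in these values was not tested.

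Azin1 (chr15:38487430-38519294), the antizyme inhibitor, was the most abundant member after Oaz1, counting Amd1 without its copy. It had 164.6, 161.0, 156.8, 177.3 and 164.5 TPM in nKO 1 to 5, against 134.6, 169.7, 179.2, 167.5 and 158.8 TPM in control 1 to 5. Its libraries overlapped throughout apart from a low control 1. The log2 fold change was 0.00 (SE 0.09), with an interval of the fold from 0.879 to 1.14. Azin1 was 2.20 ± 0.107 times Odc1 in nKO and 2.27 ± 0.137 times Odc1 in control on the TPM scale.

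For breakdown, Sat1 (chrX:155213126-155216449) encodes the acetyltransferase that marks spermidine and spermine for oxidation or export. Sat1 had 73.3, 71.3, 74.1, 72.0 and 92.9 TPM in nKO 1 to 5, against 56.0, 77.4, 70.7, 89.1 and 77.9 TPM in control 1 to 5. A single nKO animal, nKO 5, was above the other 4, which lay between 71.3 and 74.1 TPM, and the control libraries spanned a wider range. The log2 fold change was 0.03 (SE 0.12), and it was -0.05 without nKO 5.

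Smox, spermine oxidase at chr2:131491858-131525183, had 36.6, 33.8, 30.97, 27.3 and 38.4 TPM in nKO 1 to 5, against 35.7, 34.3, 24.6, 31.1 and 29.0 TPM in control 1 to 5. Its groups overlapped, and in CPM the outer libraries were nKO 4 at 10.4 and control 1 at 27.2. The log2 fold change of Smox was -0.09 (SE 0.21) on counts but 0.24 without control 1 and nKO 4, so no direction is given for it. Paox (chr7:140115735-140134334), the peroxisomal oxidase of acetylated polyamines, was the lowest member in nKO, at 8.76 ± 0.887 TPM, against 8.67 ± 1.45 TPM in control (SD, n = 5 each). Its libraries ran from 7.64 to 9.64 TPM in nKO and from 7.39 to 10.5 TPM in control. Smox exceeded Paox by 3.83 ± 0.536 times in nKO and 3.70 ± 1.01 times in control. Paox and the neighbouring gene Echs1 overlap in position, and with the strand setting of the quantification not given in the sources used here, reads of one could count for the other. Odc1, Smox, Azin1 and Oaz1 each overlap a small or predicted RNA gene (Gm22748, Gm30679, Mir6951 and Mir1982).

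Slc18b1 encodes the vesicular polyamine transporter and lies at chr10:23796859-23827969, plus strand. It had 8.45, 10.8, 10.5, 10.3 and 8.92 TPM in nKO 1 to 5, against 6.36, 5.08, 5.38, 6.92 and 7.30 TPM in control 1 to 5. Every nKO library exceeded every control library, with a gap between nKO 1 and control 5. The log2 fold change was 0.62 (SE 0.13), a fold of 1.53 with a 95% interval from 1.26 to 1.87. Its adjusted p was 0.82 in edgeR, 0.77 in limma-voom and 0.0493 in DESeq2, so the call depends on the tool. Of 20 alternatives 2 were past 5%, and both used the DESeq2 test. By unadjusted p in edgeR Slc18b1 was number 5 of 14378 tested genes, and by log2 fold change number 53. Since it came into the list through this same difference, these places are a description and not support.

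In estimated counts, before any scaling, Slc18b1 had 140.8 to 203.2 reads in nKO libraries and 92.6 to 147.9 in control libraries, so these ranges met at the ends. Its spread between animals was ordinary, above that of 30.4% of genes of similar level, and in TPM its log2 difference was 0.66. In TPM and CPM neither control 1 nor nKO 4 was at the end of its group, although nKO 4 had the highest estimated count and control 1 the shortest effective length, 2687 bases. Without both libraries the log2 fold change was 0.61. In the authors' deposited table of scores Slc18b1 had 0.317, 1.58, 1.47, 1.23 and 0.658 in nKO 1 to 5, against -0.368, -1.84, -1.75, -0.485 and -0.317 in control 1 to 5. The unit of that score is not stated. The deposited score moved with log2 CPM across the 10 libraries (r = 0.995), which are the same libraries.

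Slc18b1 has 3 transcript models in the files. The leading model, NM_183116, had 6.08, 4.61, 8.71, 6.28 and 7.62 TPM in nKO 1 to 5, against 4.49, 4.34, 1.48, 6.92 and 6.36 TPM in control 1 to 5. Those ranges overlapped, unlike the gene's. NM_001358813 had 1.99 ± 1.12 TPM in nKO and 0.728 ± 0.679 TPM in control, and NM_001358812 had 1.15 ± 1.43 TPM in nKO and 0.760 ± 0.912 TPM in control. The share of NM_183116 varied from 42.7% to 85.4% in nKO and from 27.5% to 100% in control, so the split among models differed between animals of a group.

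**Figure D4:**
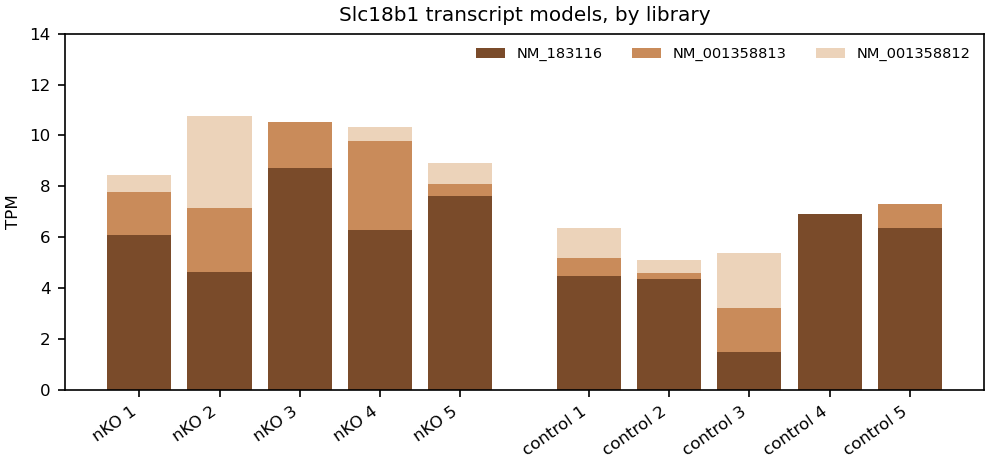
Stacked TPM of the 3 Slc18b1 transcript models by library, nKO libraries left of control libraries. The stacks end between 8.45 and 10.8 TPM in nKO and between 5.08 and 7.30 TPM in control, while the split among models differs between animals of a group.

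The 250 bases before the annotated start of Slc18b1 are shown because it is the member whose libraries did not overlap between the groups in TPM and CPM. They are from RefSeq on GRCm38.p6, plus strand, at chr10:23796736-23796985, and capitals mark 2 matches to GGGCGG on either strand, a motif known from the GC box bound by Sp family factors. The start used in that table lies inside the outer span of the gene given above, so the window overlaps the 5′ end of that span.
Slc18b1: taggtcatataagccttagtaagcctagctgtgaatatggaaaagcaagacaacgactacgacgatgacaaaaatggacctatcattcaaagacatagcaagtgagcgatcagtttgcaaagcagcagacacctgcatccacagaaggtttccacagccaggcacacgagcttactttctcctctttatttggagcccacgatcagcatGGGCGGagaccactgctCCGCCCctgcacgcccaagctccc
The table of promoters held 10 such windows for 8 of the 10 members; Srm and Azin1 had none. GGGCGG on either strand was in 8 of the 10 windows, for 7 members including Slc18b1 and Odc1, beside 32.7% of all 32851 windows. The E-box CACGTG was in 1 window, of Sms, beside 6.02% of all windows, and TATAAA was in 0 member windows, beside 12.4% of all. CCAAT was in 2 windows, of Oaz1 and Sms, beside 33.8% of all. A match is a description of these letters and says nothing about binding.

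The order of the members by level was nearly the same in both groups. In nKO it was Oaz1, Azin1, Sms, Sat1, Odc1, Srm, Smox, Amd1, Slc18b1 and Paox. In control the order was the same up to Amd1 and ended with Paox above Slc18b1. The place of Amd1 is that of its listed value without Amd2. The sum of Amd1 and Amd2 stood between Oaz1 and Azin1 in nKO, at 185.6 TPM. In control it stood between Azin1 and Sms, at 159.4 TPM, and it overlapped Azin1 in both groups. Oaz1, Azin1 and Sms were apart from each other in both groups. Sat1 and Odc1, and Smox and Amd1, overlapped in both groups. Amd1 also overlapped the member below it in both groups, as did Slc18b1 and Paox in nKO, and Sms and Sat1, Odc1 and Srm, and Srm and Smox in control. Slc18b1 exceeded Paox in 4 of 5 nKO libraries, whereas Paox exceeded Slc18b1 in 5 of 5 control libraries. Relative to Odc1, Slc18b1 stood at 0.130 ± 0.0105 in nKO and 0.0877 ± 0.0165 in control (TPM ratio), without overlap.

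Of 7 members with several models, the split of Slc18b1 varied most, as given above, and those of Sat1 and Azin1 varied least. NM_009121 made up to 98.1% of Sat1 in nKO and up to 96.5% in control, and at least 94.3% in every library. The leading model of Azin1, NM_018745, made 82.6% to 86.6% in nKO and 83.7% to 87.2% in control. Of 9 models of Smox, NM_145533 led in every library, with 57.5% to 81.5% in nKO and 71.6% to 87.2% in control. The leading model of Sms, NM_009214, made 82.8% to 98.9% in nKO and 88.4% to 100% in control. Paox was given to NM_153783 alone in every library but control 1, where its share was 89.3%. A single library stood apart for Oaz1: the alternative model NM_001301034 took 24.0% of its TPM in nKO 4, beside at most 3.76% in the other nKO libraries and 6.18% in control libraries.

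Animals of the same group differed in a shared way. The first principal component of all tested genes held 33.6% of the variance and ran from control 1 at -46.8 to nKO 4 at 29.8. The other control libraries lay from -2.42 to 23.5 and the other nKO libraries from -8.04 to 8.3, so the groups overlapped along this component. Within groups, log2 CPM of Azin1 and Sms correlated with it at 0.941 and 0.929. That of Oaz1, Smox and Srm correlated with it at -0.945, -0.931 and -0.808 (Pearson, the same 10 libraries for every gene). Slc18b1 correlated at -0.331. These are descriptions without a test.

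Sms and Azin1 moved together from animal to animal on either scale, at r = 0.961 in log2 CPM and 0.970 in log2(TPM + 0.1), after removing group means. Without control 1 and nKO 4 the values were 0.911 and 0.854 over 8 libraries. The opposite movement of Sms and Oaz1 depended on both the scale and those libraries: it was -0.907 in CPM and -0.179 in TPM, and -0.547 in CPM without the pair. Smox and Oaz1 correlated at 0.888 in CPM but at -0.12 in TPM, and at -0.0863 in CPM without the pair. For Srm and Azin1 the values were -0.86 in CPM and -0.435 in TPM, and -0.841 and -0.815 without the pair. The within-group spread of Oaz1 was 0.259 in log2 CPM and 0.0610 in log2(TPM + 0.1), and that of Smox was 0.384 in log2 CPM and 0.203 in log2(TPM + 0.1). Direction between the groups also depended on the scale: Srm, Smox and Paox were lower in nKO on counts, by -0.03, -0.09 and -0.04, but 0.14, 0.11 and 0.02 higher in log2(TPM + 0.1).

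**Figure D5:**
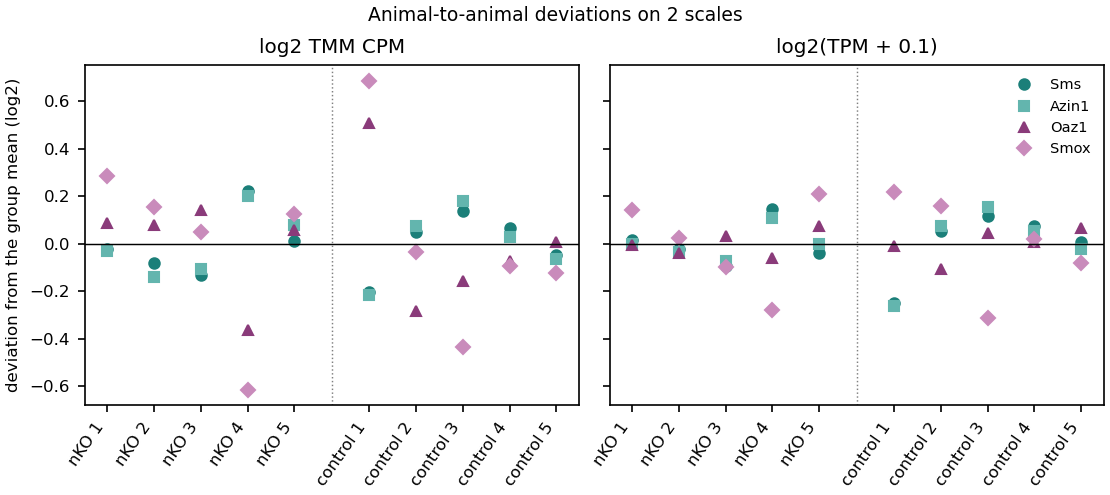
Deviation of each library from its group mean for Sms, Azin1, Oaz1 and Smox, in log2 CPM on the left panel and log2(TPM + 0.1) on the right, nKO libraries left of control libraries. Oaz1 and Smox stand far out in nKO 4 and control 1 in CPM, and Oaz1 spreads by 0.259 in CPM but 0.0610 in TPM.

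Other genes of polyamine metabolism gave the setting. Of 30 genes in 4 lists (precursor supply, other antizymes and acetyltransferases, hypusination, and transport), 26 were tested. By sign alone 9 had a positive and 17 a negative log2 fold change in nKO, so 34.6% were higher, beside 47.8% of all tested genes, and the median was -0.08. EdgeR called 0 of them, with 3 at an unadjusted p under 0.05, beside 5.65% of all tested genes. DESeq2 called none of these 26 either. The 3 were Amd2, Sat2 and Ahcy.

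In precursor supply, Ahcy, which clears the by-product of methyl transfer, had a log2 fold change of -0.24 (SE 0.10), with 21.1 to 26.5 TPM in nKO and 24.5 to 31.1 TPM in control. Oat, ornithine aminotransferase, had -0.15 (SE 0.07) and Azin2, another antizyme inhibitor, -0.44 (SE 0.26). Azin2 reached 30.9 CPM in control 1, and its log2 fold change was -0.05 without control 1 and nKO 4. Among the acetyltransferases and antizymes, Sat2, a relative of Sat1, had 13.5 to 16.8 TPM in nKO and 14.7 to 25.8 TPM in control, a log2 fold change of -0.38 (SE 0.15). Amd2 was counted here at 0.30 (SE 0.12), and Oaz2, a further antizyme, had 0.05 (SE 0.07).

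Hypusination joins part of spermidine to the translation factor Eif5a. Eif5a had 365.5 ± 16.2 TPM in nKO and 362.0 ± 15.3 TPM in control, and Dhps, the synthase of that modification, 49.4 ± 4.24 TPM in nKO and 45.2 ± 4.38 TPM in control. Dohh, its hydroxylase, had a log2 fold change of -0.50 (SE 0.38), which was 0.21 without control 1 and nKO 4. For transport, Atp13a2, the lysosomal polyamine exporter, had -0.44 (SE 0.31), and Gpc1, a heparan sulfate proteoglycan involved in uptake, -0.26 (SE 0.19). Both changed sign without control 1 and nKO 4, at 0.08 for Atp13a2 and 0.04 for Gpc1. Slc7a2, a carrier of cationic amino acids, had 0.12 (SE 0.11).

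Other vesicular carriers were read beside Slc18b1. Of 8 listed relatives 4 were tested; edgeR called 0 of them, with 0 at an unadjusted p under 0.05, DESeq2 called none, and all 4 overlapped between the groups. Slc17a7, Slc17a6 and Slc17a8, carriers of glutamate, had log2 fold changes of 0.06 (SE 0.12), 0.05 (SE 0.11) and 0.00 (SE 0.21). Slc32a1, the carrier of GABA and glycine, had -0.15 (SE 0.30) on counts and 0.37 without control 1 and nKO 4. The difference between Slc18b1 and these carriers was not itself tested.

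Cell type markers were read beside the same difference. Of 49 tested markers of 8 brain cell types, 25 were higher in nKO by sign, beside 47.8% of all tested genes. At an unadjusted p under 0.05 there were 7, of which 6 were higher in nKO, beside 5.65% of all tested genes; neither edgeR nor DESeq2 called any of them. Tbr1, a transcription factor of excitatory neurons, had 45.5, 39.6, 51.8, 56.0 and 37.1 TPM in nKO 1 to 5, against 32.2, 26.0, 23.9, 32.5 and 32.6 TPM in control 1 to 5. It was the 1 brain marker whose TPM ranges were apart, though its CPM ranges overlapped, and its log2 fold change of 0.57 (SE 0.14) was close in size to that of Slc18b1. The other 5 that were higher were Gad2 at 0.16 (SE 0.07) and Lhx6 at 0.31 (SE 0.14) among inhibitory neuron markers, Slc1a2 of astrocytes at 0.24 (SE 0.07), Bcas1 of the precursor list at 0.28 (SE 0.10) and Flt1 of endothelium at 0.32 (SE 0.10). Gja1 of astrocytes was lower, at -0.18 (SE 0.06).

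Summed over each list, the 8 markers of excitatory neurons had 1569 to 1749 TPM in nKO and 1308 to 1603 TPM in control, with 5 of 8 higher by sign. The 7 markers of inhibitory neurons had 1113 to 1186 TPM in nKO and 935.5 to 1139 TPM in control, with 4 of 7 higher. The 8 astrocyte markers had 2531 to 2700 TPM in nKO and 2405 to 2549 TPM in control, with 1 of 8 higher on counts. The sums of these 3 lists reached higher and started higher in nKO, while their ranges overlapped. The same held for the oligodendrocyte, precursor, microglial and mural lists below, but the endothelial sums started and ended lower in nKO. Slc1a2, the astrocyte marker that was higher on counts, averaged 1098 TPM in nKO and 919 TPM in control. The 7 markers of oligodendrocytes summed to 1663 to 2035 TPM in nKO and 1584 to 1896 TPM in control. Their 4 precursor markers had 102.9 to 119.6 TPM in nKO and 87.5 to 113.6 TPM in control, and the 6 microglial markers 261.3 to 293.4 TPM in nKO and 238.5 to 285.9 TPM in control. For 5 endothelial markers the sums were 154.1 to 188.4 TPM in nKO and 159.8 to 196.2 TPM in control, and for 4 mural markers 134.1 to 150.8 TPM in nKO and 118.8 to 149.2 TPM in control. All these sums overlapped between the groups. The 7 blood genes had 61.9 to 203 TPM in nKO and 86.4 to 248 TPM in control, with 2 of the 4 tested, S100a8 and S100a9, lower at an unadjusted p under 0.05. The part of cell type makeup in the Slc18b1 difference was not tested.

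The 5 genes most like Slc18b1 in their deviations from the group means, of 13726 genes ranked over 10 libraries, were Nrm (r = 0.951), E130102H24Rik (0.893), Wdsub1 (0.889), Tfpt (0.881) and Noc4l (0.880). No other member was among them. Their own log2 fold changes ran from -0.12 for E130102H24Rik to 0.31 for Noc4l. With so many genes ranked over so few libraries, these values are given as a description.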

How the data were processed

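Cortex RNA of 5 Atad3 nKO and 5 control mice was sequenced. Per the submitters' processing notes, the tools named are bcl2fastq, Salmon and DESeq2 and the build is mm10; versions, roles and the annotation release are not given in the sources. Per the file headers, the authors deposited for each library gene and transcript tables of estimated counts (which need not be whole), TPM and effective lengths. TPM divides each count by its effective length and scales to a fixed total. A score for each of 22 genes, of unstated scale, is in a further deposited table.

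Here estimated counts were rounded, filtered with filterByExpr (minimum count 10, minimum total 15), scaled by TMM and compared with the robust quasi-likelihood F test of edgeR 4.0.16 in R 4.3.3. P-values were adjusted over all 14378 tested genes by Benjamini-Hochberg, with a 5% threshold. The SE is the log2 fold change without its sign, divided by the square root of F. The 95% intervals reach a t quantile times that SE to either side of the log2 fold change. They concern the difference between the groups, and the spread between animals enters through the SE. The script was tested on simulated data. DESeq2 1.42.0, limma-voom of limma 3.58.1, other scalings and filters, effective length offsets and leaving out each library were the alternatives. log2 CPM used a prior count of 2 and log2 TPM a pseudocount of 0.1. Amd1 and Amd2 were aligned with Biopython 1.88.

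Members and lists were chosen with earlier results of these data known. Named besides the members are Atad3a, the 3 genes with the smallest edgeR p of each surrounding list, tested vesicular relatives and the 5 genes most like Slc18b1. Other genes named (markers, some for their p, and Echs1 and other overlapping genes) were chosen after their values were seen or for their position. The labels give no pairing, litter or batch, and number all control libraries before the nKO libraries; if that was the order of handling, it cannot be told apart from genotype. The control animals are littermates, per the labels, and each library is taken as 1 animal.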

Additional observations from a re-analysis of the deposited data

Results flagged for a closer look

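In 3 of 24 groups of 5 libraries examined, a library stood far from the others relative to the range of its group. Chance gives about 1 in 20 for independent groups of normal values. These groups share libraries, so the count is not read against that rate. Sat1, the polyamine acetyltransferase, had 38.3 CPM in nKO 5, while the other nKO libraries had 28.4 to 29.9 CPM. Smox, spermine oxidase, had 27.2 CPM in control 1, while the other control libraries had 12.5 to 16.4 CPM. Oaz1, antizyme, had 83.1 CPM in nKO 4, while the other nKO libraries had 111.3 to 118.0 CPM. For Smox and Oaz1 the library apart was an end of the first principal component, and its effective lengths were also extreme, at 1830 bases for Smox in control 1 and 499 bases for Oaz1 in nKO 4. In TPM, Smox had 35.7 in control 1 beside 34.3 in control 2, and Oaz1 had 445.4 in nKO 4 beside 451.7 in nKO 2. Sat1 stayed apart in TPM, at 92.9 in nKO 5 beside at most 74.1 in the other nKO libraries. Sat1 had an effective length of 1087 bases in nKO 5, within the 1069 to 1113 bases of the nKO group. The part of effective length was not tested.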

How the results depend on the processing

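Over 20 alternatives the log2 fold change of Slc18b1 lay between 0.56 without control 2 and 0.67 without nKO 1. Every nKO library lay above every control library in CPM, so leaving libraries out could hardly change its sign. The kept sign is therefore not read as support. The count of called genes, 2 by edgeR, was 5 by DESeq2, and the count of called members, 0 by edgeR, was 1 by DESeq2 (Slc18b1, adjusted p = 0.0493); both counts were the same with the filtering of DESeq2 set for 10%, chosen after seeing the data. Leaving out control 1 and nKO 4 together, also chosen after seeing the data, left no member called and gave log2 fold changes of 0.17 for Srm, 0.24 for Smox, -0.10 for Sms, -0.11 for Azin1, -0.04 for Sat1, 0.02 for Paox and -0.01 for Odc1, each with the opposite sign to the full set, and of -0.02 for Oaz1. Among other named genes, Dohh, Atp13a2, Gpc1, Eif5a, Slc7a2, Slc17a6, Slc17a8 and Slc32a1 also changed sign then. Control 1 (-46.8) and nKO 4 (29.8) are opposite ends of the first principal component and belong to opposite groups. Leaving out both moves the control group up and the nKO group down along it. Sign changes of genes that follow this component are therefore given as values and not read as a check on direction. Amd1 ran from -1.91 with limma-voom to 0.46 without control 4. The sum of Amd1 and Amd2 kept its sign, between 0.12 and 0.26. The causes of these shifts were not tested. No paired analysis was possible because the labels give no numbers shared between the groups. With 5 animals a group, differences as small as those of most members could not be told from 0. Median log2 fold changes also followed gene length, from -0.07 in the shortest of 4 length classes to 0.05 in the longest, a shift as large as most members' own values. Estimated counts carry an error of assigning reads between copies and models that the tests do not include.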
